A study of Homo sapiens with 9 samples.

Results

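The insulin-like growth factor (IGF) receptors, their ligand IGF2, the receptor substrates and the IGF-binding proteins were followed by RNA-seq in C28/I2, a line of immortalised chondrocytes of human origin, over 9 libraries. The 10 genes were chosen by name from the Ensembl rows of the count tables, with earlier results of these data known. The 10 were IGF2, IGF1R, IGF2R, IRS1, IRS2, IGFBP2, IGFBP3, IGFBP4, IGFBP6 and IGFBP7. They are 10 of 60671 genes in each table, and all 10 passed the filter on low counts that kept 19812 genes for testing. The libraries fall into 3 groups of 3, which the labels call Control, Scrambled and CA2 shRNA, and all are of the same cell line. CA2 is carbonic anhydrase 2, a cytosolic enzyme that interconverts carbon dioxide and bicarbonate, and the series asks what its loss does to the metabolism of articular chondrocytes. The CA2 shRNA cells were transduced with a short hairpin RNA against CA2. The number of hairpins, the construct of the Scrambled group and any transduction of the Control cells were not given. The labels do not say whether the 3 libraries of a group are separate cultures. The p-values thus measure only how much these samples vary, and that variation may be technical.

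IGF1 and IGF2 are secreted hormones that bind the receptor tyrosine kinase IGF1R, which passes the signal through the docking proteins IRS1 and IRS2 to the PI3K-AKT and RAS-ERK branches. IGF2R, the cation-independent mannose-6-phosphate receptor, has no kinase and takes IGF2 up for degradation in lysosomes. The IGF-binding proteins hold IGFs outside the cell and are cut by proteases that free the ligand, and in cartilage IGF signalling is known for driving proteoglycan synthesis.

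Total counts ranged from 16994368 to 34261244 per library. CA2 itself was low in every library, at 2.31, 2.00 and 1.94 CPM (counts scaled to the library size after TMM correction) in the Control libraries, 1.82, 1.96 and 2.06 in the Scrambled libraries and 1.397, 0.905 and 1.10 in the CA2 shRNA libraries. The 3 CA2 shRNA libraries lay below all 6 others, with a log2 change of -0.77 against Scrambled (SE 0.231, adjusted p = 0.0276) and -0.86 against Control (SE 0.2303, adjusted p = 0.0159). The first call was lost under 6 of 19 alternative settings, with a highest adjusted p of 0.109, among them DESeq2 (0.063) and leaving out CA2 shRNA 3 (0.109), and the second under 3 of 19, with a highest adjusted p of 0.0759. Adjusted p-values are from edgeR's quasi-likelihood test with Benjamini-Hochberg adjustment over all 19812 genes, at a threshold of 0.05. Of the 13 chondrocyte markers looked at, 5 reached 1 CPM in every library, namely SOX9 (81.7 to 105 CPM), MATN3, COL11A2, COL2A1 (1.45 to 2.23 CPM) and COMP, while ACAN lay between 0.402 and 1.17 CPM and COL9A1 had 0 counts in all. The summed level of the 13 markers was 106 to 120 CPM in Control, 112 to 118 in Scrambled and 125 to 128 in CA2 shRNA. Most of that sum was SOX9, which rose against Scrambled by 0.20 on the log2 scale (adjusted p = 0.0364), while COMP fell by 0.86 (adjusted p = 0.0161). MATN3, COL2A1, COL11A2, ACAN and SOX6 did not pass, with changes of -0.90 to -0.03. The part of these markers in the results was not tested. Control 3 and Scrambled 2 differed from the other 4 control libraries in mitochondrial counts (4.06% and 4.08%) and in the nuclear RNA NEAT1. Without Control 3 and Scrambled 2 together, some calls described later were lost. These were IGF1R against Control, SPRY2 and MAPK3 against Scrambled, and SH2B3 and IGF2BP2 in both comparisons. INSR against Scrambled and NRAS against Control passed.

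Of the 10 IGF genes, IGF2, IGF1R, IRS1 and IGFBP3 fell in CA2 shRNA cells against Scrambled, 0 rose and 6 did not pass. Among all tested genes 8.88% fell, 8.02% rose and 16.9% passed in either direction. Against Control the same 4 genes fell, 0 rose and 6 did not pass, where 8.26% of all tested genes fell, 6.41% rose and 14.7% passed. Both comparisons use the same CA2 shRNA libraries, so the second is not an independent repeat of the first. The median log2 change of the 10 genes was -0.11 against Scrambled and -0.12 against Control, beside medians of -0.03 and -0.01 over all tested genes. Between Scrambled and Control 0 of the 10 genes passed and 0 (0%) of all tested genes did. At an unadjusted p under 0.05 that comparison held 550 genes, 0 of them among the 10, and DESeq2 called 1 gene. All 3 CA2 shRNA libraries lay below all 6 control libraries for 4 of the 10 genes, a separation found in 11.9% of tested genes, and above them for 1 gene, IGFBP6, as found in 11.7%. The 10 genes were chosen with earlier results of these data known. The shares and medians over all tested genes are thus only a scale, and the difference from them was not tested. In bulk RNA a smaller share of expressing cells and less RNA per cell cannot be told apart.

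**Figure D1:**
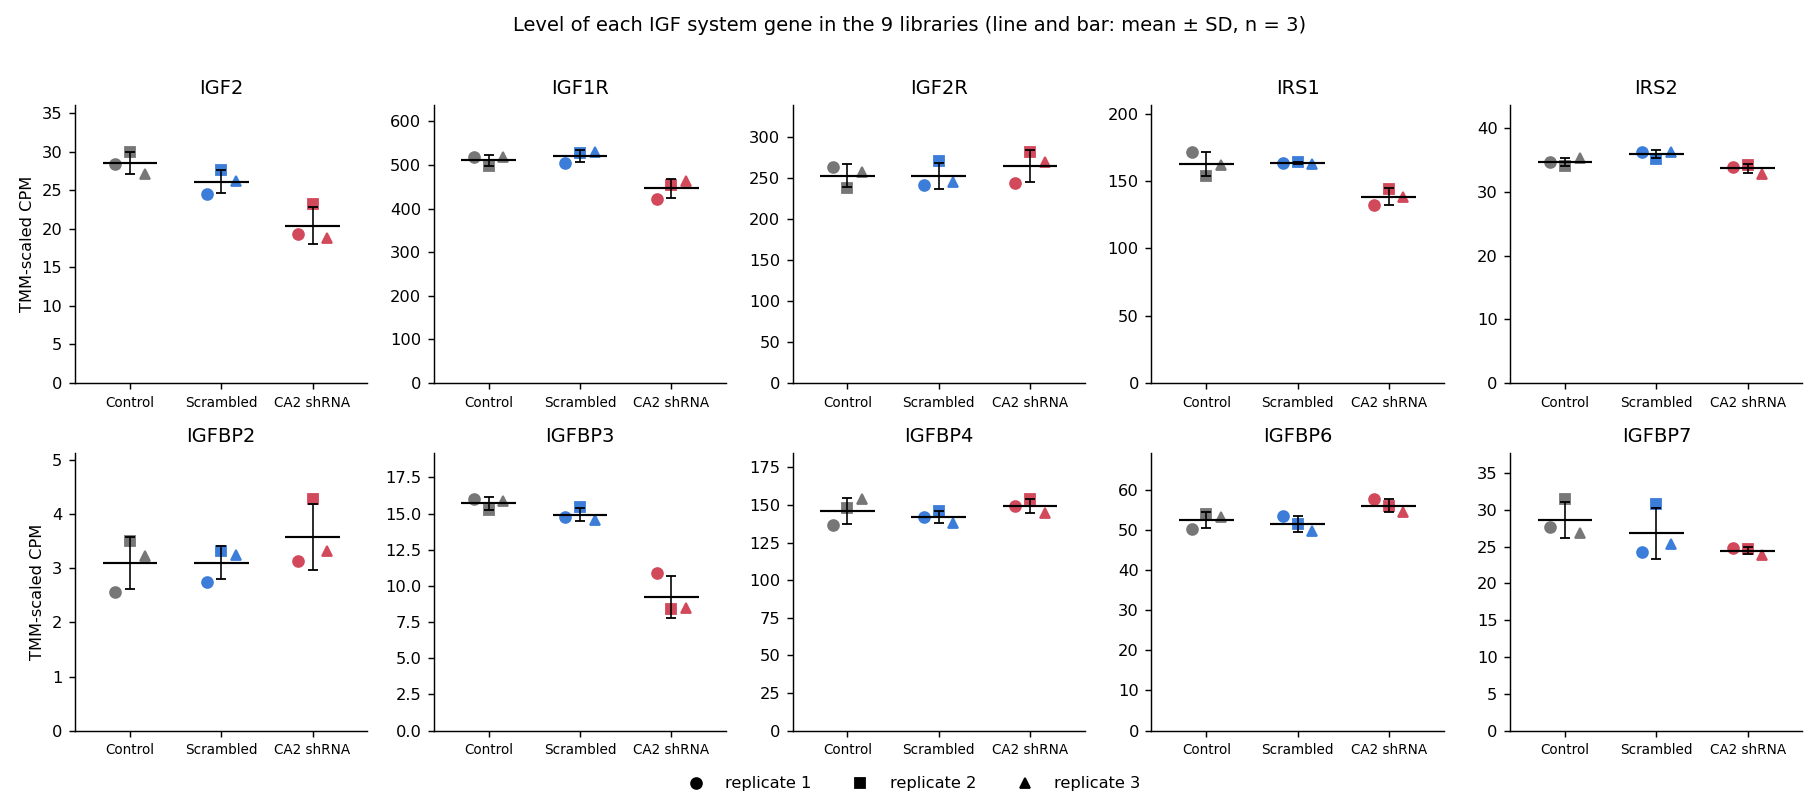
Level of each of the 10 IGF genes in each library, in CPM scaled with TMM factors, with points for the 3 libraries of Control, Scrambled and CA2 shRNA and a line and bar for each group's mean ± SD. In the panels of IGF2, IGF1R, IRS1 and IGFBP3 the CA2 shRNA points sit below all 6 control points, for IGFBP3 at 8.39 to 10.9 CPM against 14.5 to 16.01.

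The sequences printed here show what lies at the starts of a receptor gene that fell, a binding protein gene that fell and the most abundant binding protein gene, which did not pass. Each is the 250 bases before the transcription start from RefSeq (GRCh38.p14), 5′ to 3′ on the gene's strand, at chr15:98648289-98648538 (+) for IGF1R, chr7:45921273-45921522 (-) for IGFBP3 and chr17:40443200-40443449 (+) for IGFBP4. Capitals mark the GC box letters GGGCGG, read on either strand and so also as CCGCCC, and TATAAA or TATATA.
IGF1R: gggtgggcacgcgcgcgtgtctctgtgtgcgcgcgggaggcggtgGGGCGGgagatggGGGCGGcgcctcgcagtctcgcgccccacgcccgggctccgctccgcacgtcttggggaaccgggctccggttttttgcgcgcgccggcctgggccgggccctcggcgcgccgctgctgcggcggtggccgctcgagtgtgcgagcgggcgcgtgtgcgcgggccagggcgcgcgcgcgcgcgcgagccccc
IGFBP3: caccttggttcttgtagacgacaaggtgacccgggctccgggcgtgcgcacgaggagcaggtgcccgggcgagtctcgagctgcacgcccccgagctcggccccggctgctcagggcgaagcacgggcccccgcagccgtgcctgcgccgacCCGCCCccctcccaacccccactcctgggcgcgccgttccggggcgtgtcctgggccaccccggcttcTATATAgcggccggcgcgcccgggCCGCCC
IGFBP4: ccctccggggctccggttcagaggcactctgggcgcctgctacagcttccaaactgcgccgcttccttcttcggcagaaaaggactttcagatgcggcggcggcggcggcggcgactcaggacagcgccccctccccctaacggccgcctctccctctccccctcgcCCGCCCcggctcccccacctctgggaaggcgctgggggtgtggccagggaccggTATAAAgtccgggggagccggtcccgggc
IGF1R holds 2 GC boxes and no TATA letters, IGFBP3 holds 2 GC boxes with TATATA 30 bases before the start, and IGFBP4 holds 1 GC box with TATAAA 29 bases before it. RefSeq windows were found for 8 of the 10 genes, not for IGF2 and IGFBP7. IGF2R holds 6 GC boxes, IRS2 5, IRS1 4, IGFBP6 1 and IGFBP2 0 to 1 over 3 starts. The TATA letters were searched only in a short stretch before the start, and none of these holds them there. Over all 35116 RefSeq windows, 42.6% hold a GC box, 13.9% hold 3 or more and 3.30% hold the TATA letters in the stretch where IGFBP3 and IGFBP4 have them. Set beside the changes given next, IRS1 with 4 GC boxes and IGF1R with 2 fell, while IGF2R with 6 and IRS2 with 5 did not pass.

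Among the ligands, IGF2 was the one transcript detected at a measurable level. IGF2 (ENSG00000167244, GRCh38 chromosome 11, 2129112 to 2141238, minus strand), the fetal growth hormone made from an imprinted locus, was counted at 28.4, 30 and 27.1 CPM in the Control libraries, 24.6, 27.6 and 26.1 in the Scrambled libraries and 19.3, 23.2 and 18.8 in the CA2 shRNA libraries. All 3 CA2 shRNA libraries were below every control library, with CA2 shRNA 2 the nearest to them. Its log2 change was -0.36 relative to Scrambled (SE 0.0889, adjusted p = 0.00848) and -0.49 relative to Control (SE 0.0888, adjusted p = 0.00085). The first call was lost without CA2 shRNA 1 (0.0708) or CA2 shRNA 3 (0.0848), and the second held in all 19 alternatives. Of its exon bases 72.1% are shared with other annotated genes, chiefly ENSG00000284779 and INS-IGF2 on the same strand, both at 0 counts in all 9 libraries. Reads on the shared bases were thus not counted to both genes. The level of IGF2 per length is therefore uncertain, and too low if such reads were left out. Its ratio between groups uses the same exons throughout. IGF1, the main circulating IGF, had 0 to 2 counts per library, INS had 0 in all, and the imprinted neighbour H19, a long noncoding RNA, had 0 to 3. A library's floor of 3 counts corresponds to 0.0876 to 0.177 CPM here, so no change in IGF1, INS or H19 was detectable at this depth.

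The signalling receptor IGF1R fell and the clearance receptor IGF2R did not pass. IGF1R (ENSG00000140443, chromosome 15, 98648539 to 98964530, plus strand) was at 518.2, 496.9 and 519.4 CPM in the Control libraries, 505.5, 527.6 and 531.1 in the Scrambled libraries and 421.2, 454.4 and 463.7 in the CA2 shRNA libraries. The highest CA2 shRNA library was below the lowest control library. The log2 change was -0.22 against Scrambled (SE 0.0535, 95% interval -0.34 to -0.11, adjusted p = 0.00706), which leaves 85.6% of the Scrambled level, and -0.20 against Control (adjusted p = 0.018). Leaving out CA2 shRNA 1, the lowest of the group, ended both calls (adjusted p = 0.102 and 0.207), and the call against Control was also lost without Control 1 (0.052), without Control 3 (0.0686) and without Control 3 and Scrambled 2 together (0.111). IGF2R (ENSG00000197081, chromosome 6, 159969082 to 160113507, plus strand) was at 264.0, 238.1 and 258.1 CPM in the Control libraries, 242.4, 271.3 and 246.1 in the Scrambled libraries and 244.3, 282.7 and 269.6 in the CA2 shRNA libraries. Its groups overlapped, with a log2 change of 0.07 against Scrambled (95% interval -0.07 to 0.20, adjusted p = 0.539).

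The insulin receptor gene INSR, whose product also forms hybrid receptors with IGF1R, was at 64.3, 59.4 and 65.0 CPM in the Control libraries, 60.0, 63.2 and 62.6 in the Scrambled libraries and 67.1, 72.1 and 68.5 in the CA2 shRNA libraries. Its CA2 shRNA libraries were above all 6 control libraries, but it did not pass against Scrambled (log2 change 0.16, adjusted p = 0.0875) or Control (0.14, adjusted p = 0.164), and it passed against Scrambled in 3 of 19 alternatives. Per length, the ratio of IGF1R to INSR within a library, which does not depend on scaling between libraries, was 6.26, 6.50 and 6.21 in the Control libraries, 6.55, 6.49 and 6.60 in the Scrambled libraries and 4.88, 4.90 and 5.26 in the CA2 shRNA libraries. All 3 CA2 shRNA ratios were below the 6 control ratios, and the group means were 6.32 ± 0.158, 6.55 ± 0.0543 and 5.01 ± 0.214 (SD, n = 3 each). This separation follows from IGF1R lying below and INSR above all 6 control libraries, so the smallest possible p-values given next were fixed by it and are no further support. A two-sided exact permutation test gave p = 0.1 for CA2 shRNA against either control group, the smallest p that 3 against 3 libraries allow. With both control groups pooled, a comparison added after seeing the data, the exact permutation p was 0.0238, the smallest for 3 against 6, and 0.0374 after Benjamini-Hochberg adjustment over the 11 measures of pools, shares and ratios tested.

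**Figure D2:**
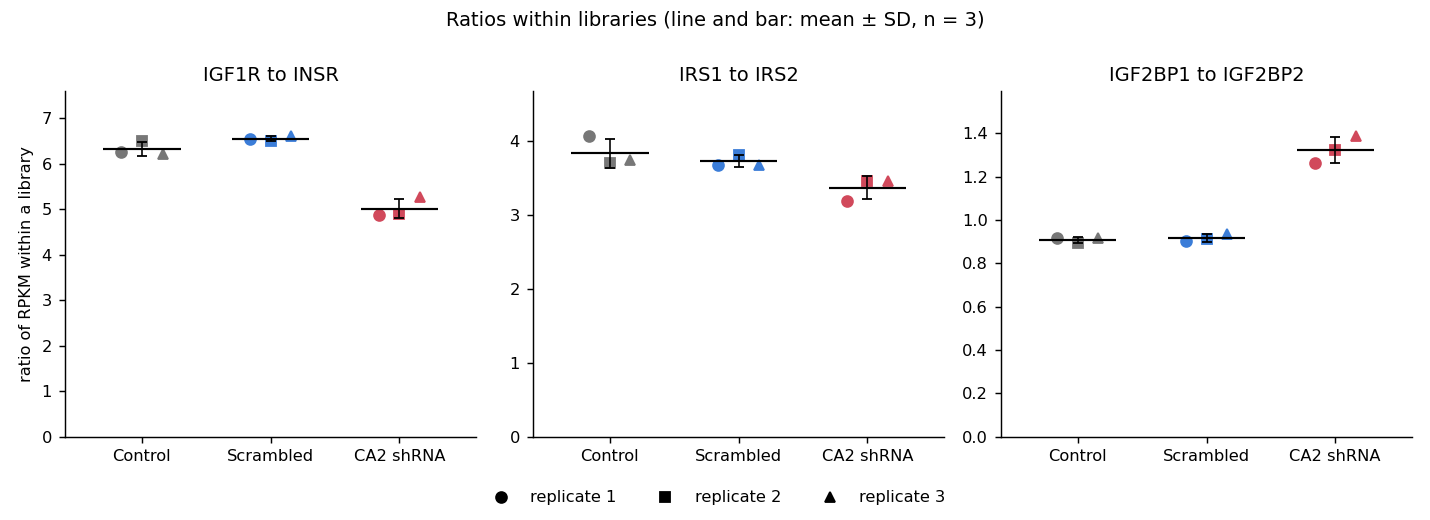
Ratios within each library of levels per length (RPKM), for IGF1R to INSR, IRS1 to IRS2 and, described further on, the IGF2 mRNA-binding protein genes IGF2BP1 to IGF2BP2, with points for libraries and lines and bars for mean ± SD (n = 3). The ratios of IGF1R to INSR and of IRS1 to IRS2 are lower in the 3 CA2 shRNA libraries than in all 6 control libraries, and the last is higher at 1.26 to 1.39 against 0.892 to 0.935.

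Of the docking proteins, IRS1 fell and IRS2 did not pass. IRS1 (ENSG00000169047, chromosome 2, 226731317 to 226799759, minus strand), the first insulin receptor substrate, was at 171.9, 153.9 and 161.6 CPM in the Control libraries, 163.1, 163.8 and 162.7 in the Scrambled libraries and 132.2, 144.4 and 138.5 in the CA2 shRNA libraries. The 3 CA2 shRNA libraries were again below all controls, and the Scrambled libraries differed by little from each other. The log2 change was -0.24 against Scrambled (SE 0.0563, adjusted p = 0.00651) and -0.23 against Control (adjusted p = 0.00841). Without CA2 shRNA 1 both calls were lost (0.0878 and 0.112), and without CA2 shRNA 3 the call against Control was (0.0607). IRS2 (ENSG00000185950, chromosome 13, 109752695 to 109786583, minus strand) was at 34.7, 34.1 and 35.3 CPM in the Control libraries, 36.3, 35.1 and 36.3 in the Scrambled libraries and 33.9, 34.2 and 32.8 in the CA2 shRNA libraries. The CA2 shRNA values reached into the Control range, with a log2 change of -0.10 against Scrambled (95% interval -0.23 to 0.04, adjusted p = 0.365). The ratio of IRS1 to IRS2 per length was 3.84 ± 0.199 in the Control libraries, 3.73 ± 0.0816 in the Scrambled libraries and 3.37 ± 0.151 in the CA2 shRNA libraries (SD, n = 3 each). The exact permutation test gave p = 0.1 against each control group and p = 0.0238 against both together (0.0374 adjusted), as for the receptor ratio. The pooled comparison was again added after seeing the data. This separation largely restates that of IRS1, since IRS2 changed little, so these smallest possible p-values are no further support.

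The binding proteins split into 1 that fell and 4 that did not pass. IGFBP3 (ENSG00000146674, chromosome 7, 45912245 to 45921874, minus strand), the main carrier of IGFs in blood, was at 16.01, 15.2 and 15.9 CPM in the Control libraries, 14.8, 15.4 and 14.5 in the Scrambled libraries and 10.9, 8.39 and 8.45 in the CA2 shRNA libraries. The control libraries kept within a narrow band and all CA2 shRNA libraries were well below it, with CA2 shRNA 1 the highest of them. Relative to Scrambled, IGFBP3 fell by 0.69 on the log2 scale (SE 0.1058, 95% interval -0.92 to -0.47, adjusted p = 0.000156), to 61.9% of the Scrambled level, and by 0.77 against Control (adjusted p = 5.48e-05). This was the widest change of the 10 genes, and it passed in all 19 alternatives of both comparisons, with log2 changes of -0.79 to -0.60 against Scrambled. Counts per library were 312 to 541 in Control, 333 to 430 in Scrambled and 139 to 231 in CA2 shRNA. Its neighbour IGFBP1, a binding protein gene of liver, had 0 to 1 counts per library.

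IGFBP4 (ENSG00000141753, chromosome 17, 40443450 to 40457725, plus strand), a binding protein cut by the protease PAPPA, was at 136.7, 147.7 and 153.8 CPM in the Control libraries, 142.1, 146.3 and 138.1 in the Scrambled libraries and 149.2, 154.0 and 145.0 in the CA2 shRNA libraries. The groups overlapped and the log2 change against Scrambled was 0.07 (95% interval -0.05 to 0.19, adjusted p = 0.446). IGFBP6 (ENSG00000167779, chromosome 12, 53097436 to 53102345, plus strand), which prefers IGF2 over IGF1, was at 50.2, 54.0 and 53.1 CPM in the Control libraries, 53.5, 51.4 and 49.6 in the Scrambled libraries and 57.7, 55.9 and 54.5 in the CA2 shRNA libraries. The CA2 shRNA libraries were above all 6 controls by a small margin, but the log2 change of 0.12 against Scrambled (95% interval -0.01 to 0.25, adjusted p = 0.215) and of 0.10 against Control (adjusted p = 0.378) did not pass.

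IGFBP7 (ENSG00000163453, chromosome 4, 57030773 to 57110385, minus strand), a relative that binds IGFs weakly, was at 27.6, 31.5 and 26.8 CPM in the Control libraries, 24.3, 30.7 and 25.3 in the Scrambled libraries and 24.9, 24.6 and 23.9 in the CA2 shRNA libraries. Control 2 and Scrambled 2 were its highest libraries, and Scrambled 1 lay among the CA2 shRNA values. The log2 change was -0.13 against Scrambled (95% interval -0.33 to 0.06, adjusted p = 0.374) and -0.23 against Control (adjusted p = 0.125), and the latter passed in 1 of 19 alternatives, the fit on the 2 groups alone (0.0294). Of its exon bases 18.3% are shared with other genes, mainly POLR2B on the opposite strand, and no source used here gives the strand setting of the counting. POLR2B, a subunit of RNA polymerase II, did not pass against Scrambled (log2 change 0.02, adjusted p = 0.888). IGFBP2 (ENSG00000115457, chromosome 2, 216632828 to 216664436, plus strand) was the lowest of the 10, at 2.56, 3.51 and 3.23 CPM in the Control libraries, 2.75, 3.32 and 3.25 in the Scrambled libraries and 3.14, 4.28 and 3.33 in the CA2 shRNA libraries. With 61 to 110 counts per library its interval was wide, and the groups overlapped (log2 change 0.19, 95% interval -0.20 to 0.57, adjusted p = 0.547). IGFBP5, the neighbour of IGFBP2 on chromosome 2 and a binding protein abundant in bone, is outside the 10 genes. It was at 34.0, 30.1 and 30.3 CPM in the Control libraries, 28.7, 34.3 and 32.2 in the Scrambled libraries and 24.6, 26.1 and 25.4 in the CA2 shRNA libraries. All CA2 shRNA libraries were below all controls, and relative to Scrambled IGFBP5 fell by 0.33 on the log2 scale (adjusted p = 0.010) and by 0.31 against Control (adjusted p = 0.0145). Without CA2 shRNA 1 both calls were lost (0.0715 and 0.0966), as they were without CA2 shRNA 3 (0.05003 and 0.0679), and the second without Control 1 (0.0753).

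**Figure D3:**
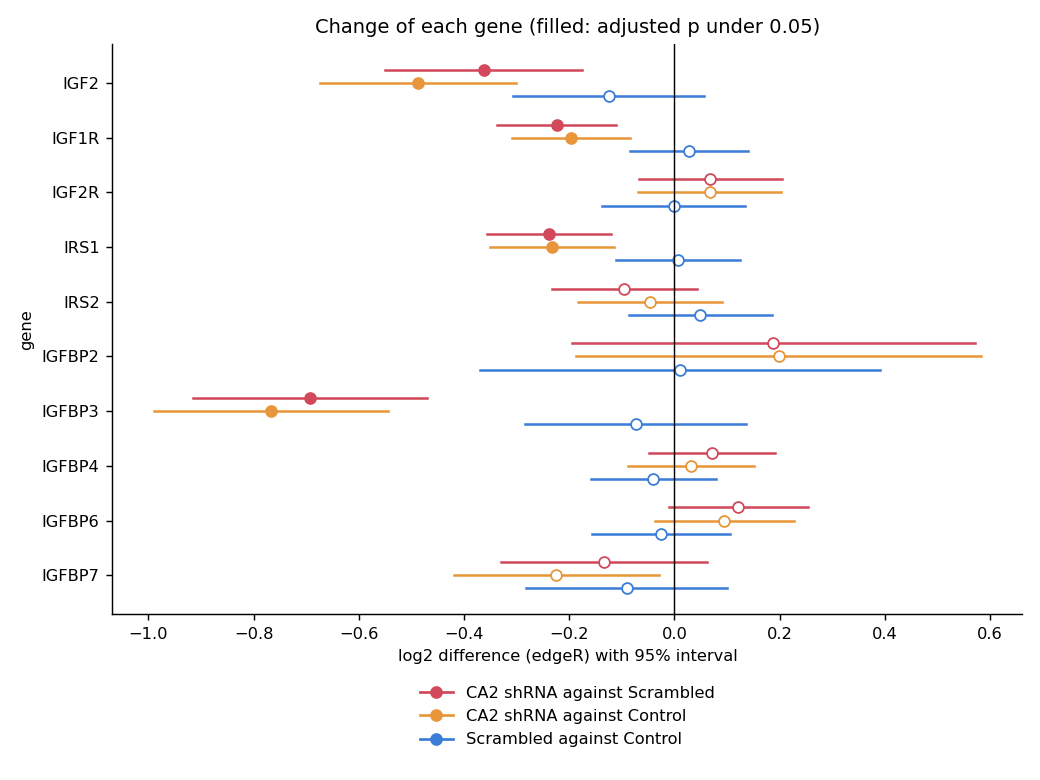
Log2 change of each of the 10 IGF genes with its 95% interval, for the CA2 shRNA group against each control group and for Scrambled against Control. The intervals of IGF2, IGF1R, IRS1 and IGFBP3 lie below 0 in both CA2 shRNA comparisons, IGFBP3 at -0.69 and -0.77, and the intervals of Scrambled against Control all include 0. The intervals are not adjusted for the number of genes, and filled points passed the adjusted threshold.

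Levels of different genes were compared per length, as TMM-scaled RPKM (CPM divided by the exon length in kilobases). In Control the order was IGFBP4 (66.3 ± 3.92), IGFBP6 (39.0 ± 1.48), IGF1R (36.7 ± 0.906), IRS1 (16.3 ± 0.907), IGFBP7 (14.8 ± 1.29), IGF2R (14.2 ± 0.76), IGF2 (4.56 ± 0.229), IRS2 (4.26 ± 0.0772), IGFBP3 (3.43 ± 0.0923) and IGFBP2 (0.654 ± 0.103), each as mean ± SD with n = 3. Neighbours whose means were closer than the sum of their SDs were IGFBP6 and IGF1R, IRS1 and IGFBP7, IGFBP7 and IGF2R, and IGF2 and IRS2. The Scrambled order already differed from that of Control, with IGF2R (14.2 ± 0.881) before IGFBP7 (13.9 ± 1.79) and IRS2 (4.40 ± 0.0811) before IGF2 (4.17 ± 0.244), both pairs within their spread. In CA2 shRNA IGF2R (14.9 ± 1.09) came before IRS1 (13.9 ± 0.614) and IGFBP7 (12.7 ± 0.266), and IRS2 (4.13 ± 0.0886) before IGF2 (3.26 ± 0.384). IGF2R and IRS1 were within their spread there, while IRS2 and IGF2 were not, with the limit on the level of IGF2 given above. IGFBP6 (41.6 ± 1.2) and IGF1R (32.0 ± 1.60), close in Control, were apart in CA2 shRNA.

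The summed level per length of IGFBP1 to IGFBP7 differed little between the groups. It was 122.9, 132.1 and 131.9 RPKM in the Control libraries, 125.1, 129.8 and 121.5 in the Scrambled libraries and 130.3, 130.9 and 125.1 in the CA2 shRNA libraries. The groups overlapped, and the exact permutation test gave p = 0.3 against Scrambled and p = 1.0 against Control. IGFBP4 made up 51.3% ± 1.33 of this pool in the Control libraries, 51.4% ± 0.26 in the Scrambled libraries and 52.6% ± 0.698 in the CA2 shRNA libraries (SD, n = 3 each), and IGFBP6 30.2%, 30.5% and 32.3%. IGFBP3 made up 2.67% ± 0.168 in the Control libraries, 2.602% ± 0.0167 in the Scrambled libraries and 1.57% ± 0.227 in the CA2 shRNA libraries. IGFBP3 was thus a small part of the pool, and the shares of a sum are not independent of each other. The IGFBP3 share was lower in all 3 CA2 shRNA libraries than in the 6 controls. The exact permutation test gave p = 0.1 against each control group and p = 0.0238 against both (0.0374 adjusted over the 11 measures). The pooled comparison was added after seeing the data. IGFBP3 itself lay below all 6 control libraries and the pool changed little, so these smallest possible p-values are no further support. The shares of IGFBP5 and IGFBP7 gave the same p-values. IGFBP7 took 11.5%, 11.04% and 9.84% and IGFBP5 3.79%, 3.91% and 3.05% in the same order of groups. IGFBP1 and IGFBP2 together stayed under 1% in every group.

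**Figure D4:**
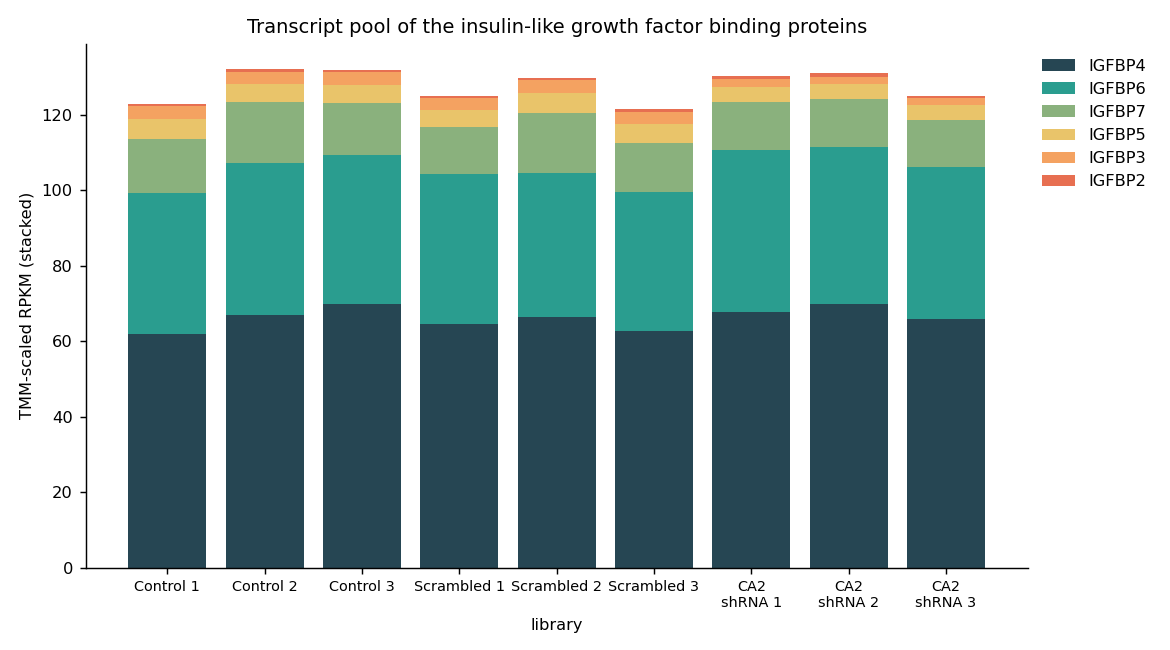
TMM-scaled RPKM of IGFBP2 to IGFBP7 in each library as stacked bars from 0, coloured by gene, with IGFBP1 too low to draw. IGFBP4 and IGFBP6 fill most of every bar, the totals span 121.5 to 132.1 RPKM, and the IGFBP3 segment is thinnest in the 3 CA2 shRNA libraries.

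Genes with the closest profile over the 9 libraries were found for the 3 members with the widest falls, among 9639 protein-coding genes of at least 10 CPM, by the root-mean-square difference of centred log2 CPM. For IGFBP3 they were PABPC4, a poly(A)-binding protein gene (difference 0.0804, log2 change against Scrambled -0.66), and the Notch ligand gene JAG2 (0.0868, -0.79). For IGF2 they were GOT1, an aspartate aminotransferase gene (0.070, -0.46), and C7orf31 (0.0718, -0.37), and for IRS1 the chromatin regulator gene ANKRD11 (0.027, -0.27) and the nucleoporin gene NUP214 (0.0305, -0.26). The median difference over all compared genes was 0.391, 0.256 and 0.173. The 9 libraries include the 3 CA2 shRNA libraries where all of these genes are low, which the measure reflects.

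Messages can also be compared by short sequences in the 3′ UTR. Earlier results on these libraries had picked out the heptamers ACACCAA and CACCAAA among falling genes, so their presence here is a description and no support for that choice. The search took the longest 3′ UTR of each protein-coding gene in GENCODE 29 (GRCh38), on the sense strand, and counted the overlapping ACACCAAA under both. Of 19121 genes searched 17.3% hold at least 1. Of the 4 members that fell, IGF2 and IRS1 hold at least 1, while IGF1R (7088 bases of 3′ UTR) and IGFBP3 (1605 bases) hold none. Of the 6 that did not pass, IGF2R and IRS2 hold 1 site and IGFBP7 holds 2. Longer UTRs hold them more often: among genes with a 3′ UTR of like length to IRS1 the share is 42.2%, for IGF2 36.0%, for IGF1R 58.6% and for IGFBP7 5.96%. The windows of 30 bases below, 5′ to 3′ on the transcript strand with the match in capitals, show that falling and unpassed members both carry them, followed by PDPK1, a falling signalling gene described next.
IGF2, chr11:2132561-2132590 (-): aaaaaaacaacCACCAAAaaaaatcaattg
IRS1, chr2:226733562-226733591 (-): ttttcttgatgACACCAAcctctcacagcg
IRS1, chr2:226731981-226732010 (-): ttgtgacgtatACACCAAAagatctggtgt
IGF2R, chr6:160107672-160107701 (+): aggcaaaccccACACCAAggaaatccacag
IRS2, chr13:109753326-109753355 (-): acacagaagatACACCAAcgtgtacatcaa
IGFBP7, chr4:57031012-57031041 (-): atagaaacaagACACCAAgatatttaatta
IGFBP7, chr4:57030892-57030921 (-): taaggcattcgCACCAAAgaaatctgaaaa
PDPK1, chr16:2602454-2602483 (+): catatgaagaaACACCAAActatgtacaga
Among the genes of the 6 pathway lists below, 10 of 20 that fell in a CA2 shRNA comparison hold a heptamer and 2 of 20 that rose do, with median 3′ UTR lengths of 2944.5 and 2124 bases. For single genes the share among genes of like length ran from 2.59% to 60.2% for those that fell and from 3.09% to 57.4% for those that rose. The heptamers were picked among falling genes of these same libraries, so the difference in these counts is no support for them. It was not tested.

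Downstream of the receptors, the list of adaptors and feedback regulators held 15 tested genes of 17, of which 3 rose, 5 fell and 7 did not pass against Scrambled (median log2 change -0.01), with the same genes called in the same direction against Control. Beside this and the list counts that follow stand the shares over all tested genes, 8.02% risen and 8.88% fallen against Scrambled and 6.41% and 8.26% against Control. The lists too were chosen with earlier results of these data known, so these shares are only a scale. SHC1, an adaptor that links IGF1R to RAS, was at 208.3, 222.7 and 223.6 CPM in the Control libraries, 231.4, 209.1 and 214.8 in the Scrambled libraries and 159.6, 150.3 and 152.3 in the CA2 shRNA libraries. The CA2 shRNA libraries were below all 6 controls, and SHC1 fell by 0.50 on the log2 scale (adjusted p = 5.68e-06 against Scrambled). SOS2, an exchange factor for RAS, fell by 0.50, SOCS2, an inhibitor of cytokine and growth hormone receptors, by 0.41, GRB10, an inhibitory adaptor of IGF1R and INSR, by 0.36 and SH2B3 by 0.21, the last a call lost in 4 of 19 alternatives against Scrambled and 13 against Control. SOCS1 and SOCS3, inhibitors that also act on IRS proteins, rose by 1.0 and 0.35, and PTPN1, a phosphatase of the insulin receptor, by 0.24. SOCS1 was low, at 2.89 to 4.59 CPM in the 6 control libraries and 5.56 to 7.42 in CA2 shRNA. Of these 8 calls 7 held in all alternatives against Scrambled and 5 against Control.

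In the PI3K, AKT and mTOR branch 6 of 30 tested genes rose, 6 fell and 18 did not pass against Scrambled (median 0.04), and 4 rose, 6 fell and 20 did not pass against Control. Of the AKT kinases, AKT2 rose by 0.18 and AKT1 did not pass (log2 change 0.07). The call of AKT2 was lost in 3 of 19 alternatives in each comparison, with highest adjusted p-values of 0.0986 against Scrambled and 0.115 against Control, and against Scrambled these were without CA2 shRNA 2, Control 2 (0.0561) or Scrambled 3 (0.0743). PDPK1, the kinase that phosphorylates AKT, fell by 0.56, RPS6KB1, an S6 kinase gene, by 0.62 and the transcription factor gene FOXO1 by 0.41, a call lost without CA2 shRNA 1 (0.0759). RPS6KB2, the other S6 kinase gene of the list, rose by 0.26 against Scrambled (adjusted p = 0.04435) and passed in 10 of 19 alternatives. Against Control RPS6KB2 did not pass (log2 change 0.19, adjusted p = 0.145). PHLPP2, a phosphatase of AKT, rose by 0.70 and the regulatory subunit gene PIK3R3 by 0.60. PHLPP2 was at 109.7 to 121.0 CPM in the control libraries and 175.9 to 197.4 in CA2 shRNA, with no overlap.

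In the RAS and ERK branch 6 of 17 tested genes rose, 0 fell and 11 did not pass against Scrambled (median 0.11), while 3 rose, 0 fell and 14 did not pass against Control. DUSP4, a phosphatase of ERK, rose by 0.56, SPRED1 by 0.48, NRAS by 0.47, SPRY2 by 0.42 and SPRY4 by 0.31, where SPRED1, SPRY2 and SPRY4 are feedback inhibitors of the branch, and the ERK kinase gene MAPK3 by 0.18 (adjusted p = 0.0494). The call of SPRY2 was lost in 9 of 19 alternatives, with a highest adjusted p of 0.16, and that of MAPK3 in 13, with a highest of 0.216. DUSP4 was at 40.0 to 45.7 CPM in the control libraries and 61.6 to 65.3 in CA2 shRNA. Against Control DUSP4, SPRY4 and SPRED1 rose, while NRAS was at 0.31 (adjusted p = 0.0572) and SPRY2 at 0.31 (adjusted p = 0.146). NRAS passed against Control in 10 of 19 alternatives, among them DESeq2 (0.0143) and the fit on the 2 groups alone (0.00217). NRAS and SPRED1 were lowest in Scrambled 1, at 55.4 and 18.0 CPM, and the call of SPRED1 against Control was lost in 9 of 19 alternatives.

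**Figure D5:**
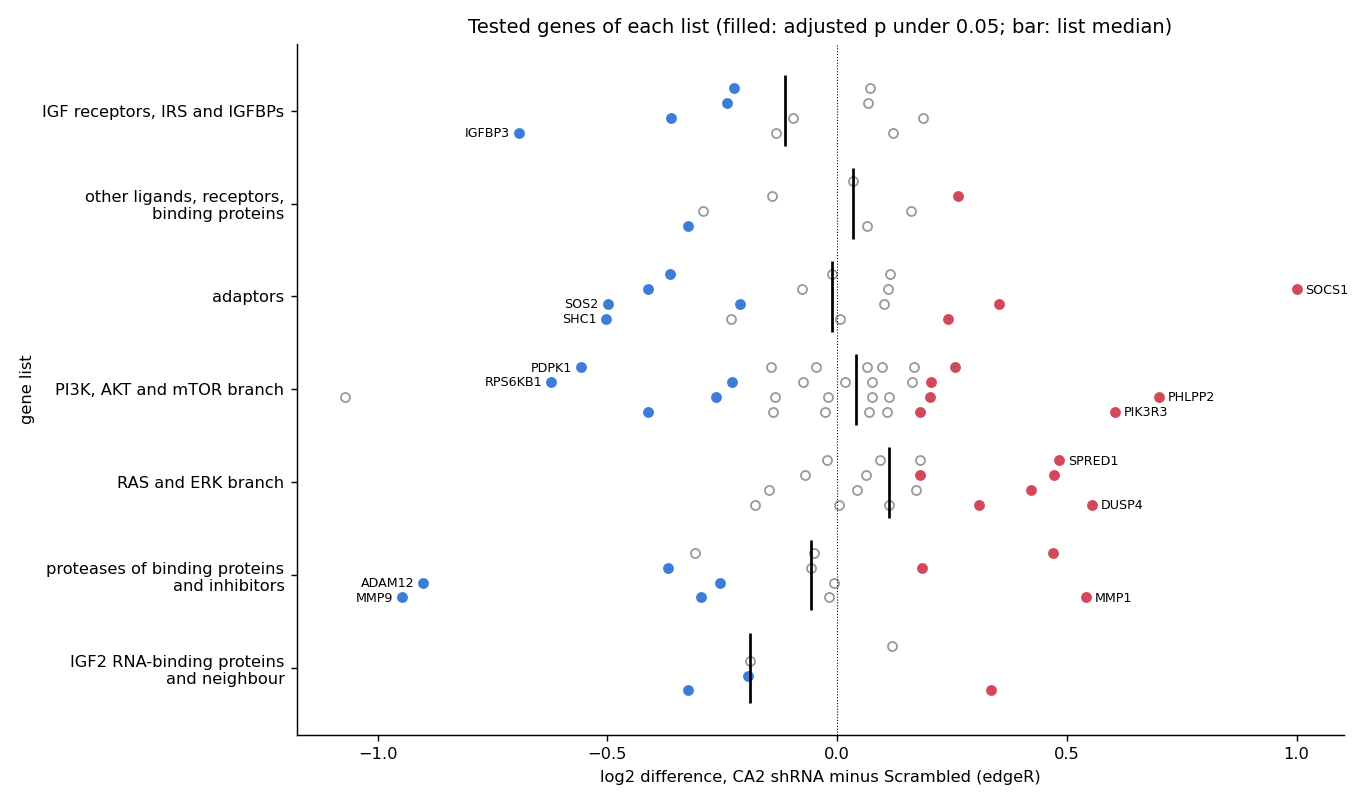
Log2 change of CA2 shRNA against Scrambled for the tested genes of the 10 IGF genes and of the 6 pathway lists, leaving out 1 gene not reported here, with filled points for adjusted p under 0.05, open points for the rest and a bar at each list's median. Named filled points reach from MMP9 at -0.95 to SOCS1 at 1.0, and the RAS and ERK list has filled points above 0 and none below.

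Among the other ligands, receptors and binding proteins 7 of 11 were tested, and 1 rose, 1 fell and 5 did not pass in both CA2 shRNA comparisons. The riser was M6PR, the cation-dependent mannose-6-phosphate receptor, at 63.2 to 67.6 CPM in Scrambled and 74.1 to 84.2 in CA2 shRNA (log2 change 0.26, adjusted p = 0.00805). Leaving out CA2 shRNA 2 ended that call (0.0596). The call of M6PR against Control was lost in 5 of 19 alternatives, without CA2 shRNA 2 (0.1945), Control 1 (0.112), Control 2 (0.121), Control 3 (0.0523) or Scrambled 3 (0.0502). The faller was IGFBP5. Of the proteases that cut binding proteins and their inhibitors, 13 of 19 were tested, of which 3 rose, 5 fell and 5 did not pass against Scrambled and 2 rose, 3 fell and 8 did not pass against Control. ADAM12, a metalloprotease that cuts IGFBP3 and IGFBP5, was at 123.7 to 134.4 CPM in the control libraries and 63.8 to 72.0 in CA2 shRNA, a fall of 0.90 on the log2 scale (adjusted p = 1.18e-08). The serine protease gene HTRA3 fell by 0.37 and the gelatinase gene MMP2 by 0.30 (adjusted p = 0.0397, lost in 7 of 19 alternatives, with a highest of 0.1645), while MMP1, a collagenase, rose by 0.54 and PLAT, tissue plasminogen activator, by 0.47. MMP9 fell by 0.95 against Scrambled from a low level and did not pass against Control (log2 change -0.52, adjusted p = 0.241), and its call was lost in 4 of 19 alternatives. PAPPA, the protease of IGFBP4, was at 12.5 to 15.1 CPM in the control libraries and 9.63 to 12.3 in CA2 shRNA and did not pass (log2 change -0.31, adjusted p = 0.0551), and its inhibitor gene STC2 was at -0.01.

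The IGF2 mRNA-binding proteins, which bind IGF2 and other transcripts, changed in opposite directions. IGF2BP1 was at 267.4, 256.1 and 265.6 CPM in the Control libraries, 261.3, 273.5 and 272.5 in the Scrambled libraries and 323.9, 348.4 and 346.5 in the CA2 shRNA libraries. The CA2 shRNA libraries were above every control library. Relative to Scrambled IGF2BP1 rose by 0.34 on the log2 scale (SE 0.0519, adjusted p = 0.000177) and by 0.37 against Control (adjusted p = 6.81e-05), in all 19 alternatives. IGF2BP2 was at 161.4, 159.0 and 160.7 CPM in the Control libraries, 160.3, 166.3 and 161.4 in the Scrambled libraries and 142.1, 146.0 and 138.5 in the CA2 shRNA libraries, below all controls in every library. It fell by 0.19 against Scrambled (adjusted p = 0.0125) and by 0.17 against Control (adjusted p = 0.0264). The call against Scrambled was lost in 4 of 19 alternatives, with a highest adjusted p of 0.122 without CA2 shRNA 3, and that against Control in 8, with a highest of 0.21 without the same library. HMGA2, a chromatin protein that acts upstream of IGF2BP2, fell by 0.33 (adjusted p = 0.00709), and IGF2BP3 did not pass (log2 change 0.12, adjusted p = 0.222). The ratio of IGF2BP1 to IGF2BP2 per length was 0.917, 0.892 and 0.915 in the Control libraries, 0.902, 0.910 and 0.935 in the Scrambled libraries and 1.26, 1.32 and 1.39 in the CA2 shRNA libraries. The order of these genes by level per length was thus reversed in all 3 CA2 shRNA libraries. That order depends on the deposited exon lengths, and in CPM IGF2BP1 was above IGF2BP2 in every library. The shift of the ratio between groups does not depend on these lengths. This ratio was not among those planned. The exact permutation test gave p = 0.1 against each control group and p = 0.0238 against both. Because IGF2BP1 lay above and IGF2BP2 below all control libraries, these smallest possible p-values were fixed in advance and are no further support.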

How the data were processed

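The authors deposited 1 table per library with raw counts, CPM and RPKM per Ensembl gene, per the file headers. Per the submitters' processing notes, bcl2fastq, STAR 2.5.1a and featureCounts 1.4.6-p5 (Subread) were used on GRCh38. No source used here gives the annotation release, the strand setting or the treatment of multi-mapping reads. The deposited counts were the input to all tests, while CPM and RPKM were recomputed from the counts with TMM factors (0.977 to 1.012) and the deposited exon lengths. Symbols came from a reference table for 60401 IDs and from GENCODE 29 for 246.

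edgeR 4.0.16 (R 4.3.3) kept 19812 genes with filterByExpr and fitted robust quasi-likelihood models on all 9 libraries with 1 term per group (6 residual degrees of freedom), tested on simulated data first. The biological coefficient of variation was 7.94%. Changes are log2 with a threshold of 0.05 on Benjamini-Hochberg adjusted p. Ratios, shares and the pool used two-sided exact permutation tests (scipy 1.17.1). Alternatives were DESeq2 1.42.0, limma-voom 3.58.1, other scalings and filters, a replicate block, the 2 groups alone, and libraries left out. The members and gene lists were chosen with earlier results of these data known. All 10 members were named, and from each list up to 6 genes past the threshold with the largest change against Scrambled. For each of the 3 members with the largest change past the threshold, the 2 genes of most alike profile were named too. INSR was named as the partner in the receptor ratio, and SH2B3, PTPN1, AKT1, AKT2, RPS6KB2, PAPPA, STC2, IGF2BP3, POLR2B and NEAT1 were added after their values were seen. Overlaps were read from the deposited exon coordinates. The list counts include 1 pathway gene that is not reported here.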

Additional observations from a re-analysis of the deposited data

How the results depend on the processing

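Under the 19 alternatives of each CA2 shRNA comparison 0 of the 10 IGF genes rose, and IGFBP3 fell in all. The count of members that fell was 1 to 4 against Scrambled and 2 to 4 against Control when single libraries were left out, with the lowest of both without CA2 shRNA 1, and 5 against Control in the fit on 2 groups. Without single libraries the genes called over the whole table were 2059 to 4011 against Scrambled (864 to 2357 rose, 1129 to 1876 fell) and 1962 to 3662 against Control (663 to 2030 rose, 1063 to 2027 fell), beside 3348 (1589 and 1759) and 2906 (1269 and 1637) with all. Without Control 3 and Scrambled 2 together, an alternative chosen after seeing the data, 2407 rose against Scrambled. Between Scrambled and Control 0 genes passed with all libraries, 1 rose with DESeq2, 7 passed with no filter (5 rose, 2 fell) and 0 to 1 passed (0 to 1 rose) without single libraries. Same-numbered libraries were not paired by the labels, and their deviations from the group means correlated at -0.185 to 0.105. The replicate block called 3422 genes against Scrambled, 2946 against Control and 0 between the controls, with the same 4 members falling. Of 39 and 31 calls in the pathway lists, 22 and 20 held in every alternative. The pool, the IGFBP3 and IGFBP4 shares and the IGF1R to INSR and IRS1 to IRS2 ratios, the measures recomputed without single libraries, kept their direction in both CA2 shRNA comparisons except the pool against Control, at -0.04 to 0.02 without single libraries. Depth limits the precision of IGFBP2 (61 to 110 counts) more than that of the other 9 members.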
